A study of Mus musculus with 6 samples.

Results

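The C/EBP transcription factor genes and granule genes listed as regulated by C/EBP epsilon were examined in mouse liver. They were 6 genes named Cebp (Cebpa, Cebpb, Cebpd, Cebpe, Cebpg and Cebpz) and 4 granule genes (Camp, Ltf, Ngp and Elane). They were taken by name, as every array probe whose RefSeq accession belongs to 1 of these 10 genes, and 11 probes were found among 56605, or 10 genes among the 22907 with a probe. The livers came from male mice that were 12 weeks old when the diets began, of a strain not given in the sources used here. One group of 3 mice ate 100% granulated regular chow (control), and the other 3 ate 75% regular chow with 25% soy bean powder (soy), for 28 days. Each mouse gave 1 liver sample and 1 single-colour Agilent array, so 3 arrays per group limit the precision of each value. All values below are background-corrected, quantile-normalized signals on the log2 scale unless a raw intensity is named, and a change is the soy mean minus the control mean.

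C/EBP proteins bind DNA as dimers through a basic region and a leucine zipper. In hepatocytes C/EBP alpha supports genes of glucose, urea and plasma protein production, and C/EBP beta and delta drive the acute phase response to inflammation. C/EBP epsilon is best known from the bone marrow, where it is needed for the last steps of granulocyte maturation and switches on the genes of the secondary granules. The liver is therefore a tissue in which Cebpa and Cebpb belong to the main cell type, while the granule genes are known from neutrophils and their precursors.

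One of the 10 genes passed the thresholds, Cebpe, which fell in soy livers (adjusted p under 0.05 from limma and a fold change above 1.5 or under 0.66). Across all genes 0.533% passed in either direction and 0.192% passed as lower. Signals of 3 of the 10 genes did not overlap between the groups, Cebpe, Cebpb and Camp, all lower in soy, beside 20.5% of all genes without overlap in either direction, 10.8% without overlap and lower, and 9.68% without overlap and higher. By the sign of the fitted change 6 of the 10 were lower, beside 51.2% of all genes. Background was cleared by 8 of the 10 throughout the control group, Ltf and Ngp being the exceptions. The median change of the 10 genes was -0.13, and that of all genes tested was -0.006. Without Ltf and Ngp, which have no measured level, the median of the other 8 was -0.39, beside -0.019 over all genes that cleared background throughout a group, a filter that a gene can pass through the group in which it is higher.

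Cebpe (NM_207131) was the gene with the clearest difference among the 10. Its raw median intensity was 1723, 1452 and 3425 on control arrays 1, 2 and 3, and 112, 103.5 and 92 on soy arrays 1, 2 and 3, where the local background of the same spots was 58 to 64. The 3 control arrays were all well above background, and none of the 3 soy arrays was. On the log2 scale the normalized signal was 10.48, 10.46 and 11.81 in control and 6.38, 6.50 and 6.36 in soy livers, so control array 3 was the highest. The means were 10.92 ± 0.77 and 6.41 ± 0.078 (SD, n = 3), a fitted change of -4.50 (SE 0.34, adjusted p = 0.00775 from limma). Because the soy signal is only a bound, the fitted changes of Cebpe are differences of normalized signals and not a measured fold, and Cebpe was at least 19.9-fold lower in soy. This bound sets the control mean against the lowest signal among probes well above background on each soy array, or the probe's own signal where that was higher. On soy 2 that lowest signal was 6.78, while the brightest F13a1 probe gave 7.04 there without being well above background. The bounds given here therefore depend on this choice of lowest signal, and a stricter choice would make them smaller. In a whole liver sample, fewer cells of a type and less of its RNA per cell cannot be told apart.

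Soy arrays had fewer spots well above background, 31308, 31988 and 32498, than control arrays, with 37010, 36366 and 38163. In all, 775 genes (3.38%) were well above background on all control arrays and on no soy array, and 1 gene (0.00437%) showed the reverse. Among these 775 genes Cebpe had the largest bound, the next was 9.36-fold, for Tiam2, and the median was 1.13-fold. Of the 775 genes, 4 passed the thresholds. Within slide 1, which held control 1, control 2 and soy 1, Cebpe differed by -4.09, and within slide 3, which held control 3 and soy 3, it differed by -5.44. Slide 2 held soy 2 only. Cebpe passed with any 1 array left out, with changes of -4.73 to -4.06.

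**Figure D1:**
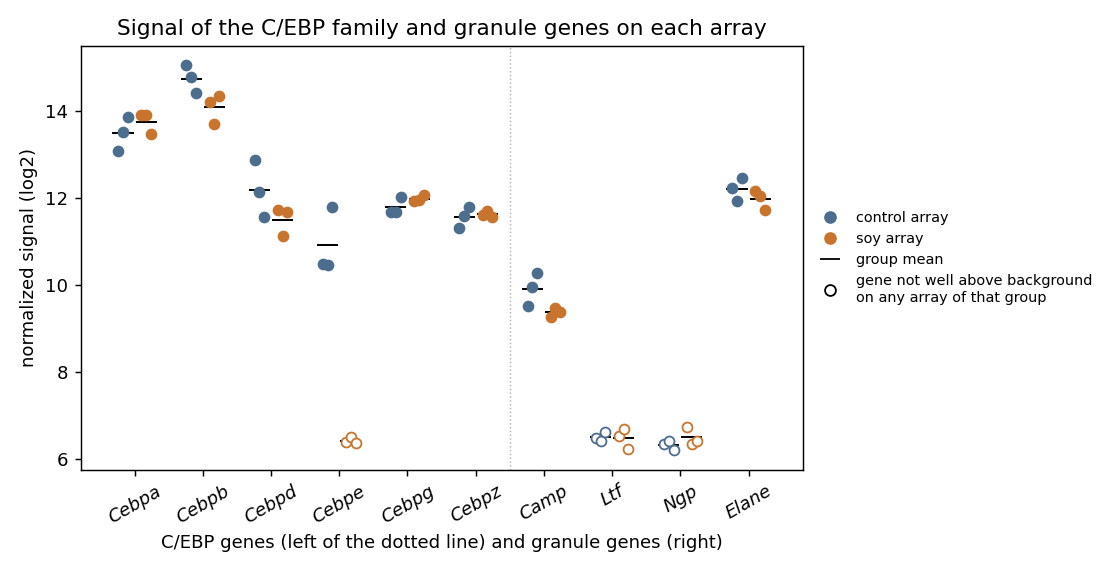
Normalized signal (log2, y axis) of the 6 C/EBP genes and 4 granule genes on each of 3 control and 3 soy arrays, by the brightest probe of each gene, with bars at the group means and open circles where a group was well above background on no array. Cebpe lies between 10.46 and 11.81 in control and between 6.36 and 6.50 in soy livers, while Ltf and Ngp lie between 6.20 and 6.73 in both groups.

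Both acute phase members, Cebpb and Cebpd, had lower means in soy livers and did not pass. Cebpb (NM_001287738) gave 15.06, 14.78 and 14.42 in control and 14.21, 13.71 and 14.35 in soy livers. Its groups did not overlap, with control 3 and soy 3 only 0.071 apart. The change was -0.66 (SE 0.21, adjusted p = 0.292), a 1.58-fold lower mean. Within slide 1 the difference was -0.71 and within slide 3 it was -0.071. Cebpd (NM_007679), another acute phase regulator, gave 12.87, 12.15 and 11.56 in control and 11.72, 11.13 and 11.68 in soy livers, so control 3 lay below soy 1 and soy 3. Its change was -0.69 (SE 0.32, adjusted p = 0.472), and within slide 3 the sign was the opposite (0.11). Without control 1 the change of Cebpd was -0.35. Control array 1 had the highest signal of both genes.

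The hepatocyte factor Cebpa (NM_007678) gave 13.08, 13.52 and 13.88 in control and 13.91, 13.92 and 13.47 in soy livers, and the groups overlapped. Its change was 0.27 (SE 0.22, adjusted p = 0.687), with 0.60 within slide 1 and -0.41 within slide 3, and it was 0.064 without control 1 and 0.46 without control 3. Cebpg, whose product is known as a dimer partner of other C/EBP and ATF proteins, was measured by 2 probes of the same transcript (NM_009884). They gave changes of 0.18 (SE 0.12, adjusted p = 0.632) and 0.17 (SE 0.13, adjusted p = 0.666), with overlapping groups, and the brighter probe was at 0.30 without control 3. Cebpz (NM_001024806) is named for a CCAAT-binding protein, though its product is not a leucine zipper factor. It gave 11.31, 11.58 and 11.79 in control and 11.60, 11.71 and 11.57 in soy livers, with a change of 0.066 (SE 0.14, adjusted p = 0.893) that turned to -0.060 without control 1. The groups overlapped for all 3 genes, and a p above the threshold does not show that they were equal.

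**Figure D2:**
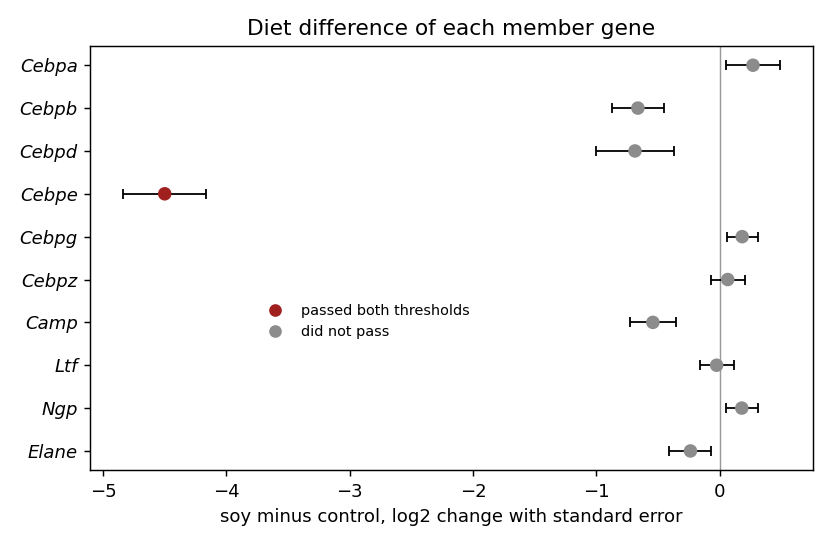
Soy minus control change (log2, x axis) of each member gene with its standard error from limma. Cebpe, at a fitted -4.50 with soy signals not well above background, is the member that passed both thresholds, and the other members lie between -0.69 and 0.27.

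The 4 granule genes were listed as regulated by C/EBP epsilon, though Elane belongs to the primary and not the secondary granules. Their sequences upstream of the transcription start are shown so that the letters of the C/EBP motif can be seen beside their signals. The windows are the 250 bases before the RefSeq start on GRCm38.p6, written 5′ to 3′ on the strand of the gene, and capitals mark each match to TTGCNNAA or TTNNGNAA on either strand.
Camp (chr9:109849457-109849706, - strand): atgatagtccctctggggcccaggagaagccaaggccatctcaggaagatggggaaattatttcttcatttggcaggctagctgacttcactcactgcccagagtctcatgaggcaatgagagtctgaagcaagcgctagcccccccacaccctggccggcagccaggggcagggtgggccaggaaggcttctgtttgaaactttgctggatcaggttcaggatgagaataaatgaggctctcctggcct
Ltf (chr9:111019042-111019291, + strand): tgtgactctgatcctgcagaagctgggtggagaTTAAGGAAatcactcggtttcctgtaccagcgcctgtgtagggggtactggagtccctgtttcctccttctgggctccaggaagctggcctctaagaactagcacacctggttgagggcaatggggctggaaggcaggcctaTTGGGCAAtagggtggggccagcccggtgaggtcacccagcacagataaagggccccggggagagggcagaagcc
Ngp (chr9:110419558-110419807, + strand): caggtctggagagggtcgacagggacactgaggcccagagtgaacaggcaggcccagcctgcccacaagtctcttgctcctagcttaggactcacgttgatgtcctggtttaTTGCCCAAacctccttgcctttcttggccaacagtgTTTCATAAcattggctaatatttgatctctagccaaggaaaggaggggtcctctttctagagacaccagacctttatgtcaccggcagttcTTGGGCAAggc
Elane (chr10:79886062-79886311, + strand): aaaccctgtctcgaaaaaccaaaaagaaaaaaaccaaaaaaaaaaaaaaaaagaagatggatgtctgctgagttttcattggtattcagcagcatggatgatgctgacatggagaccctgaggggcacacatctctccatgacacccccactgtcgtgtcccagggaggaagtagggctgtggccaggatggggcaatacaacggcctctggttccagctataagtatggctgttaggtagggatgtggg
Every TTGCNNAA match is also a TTNNGNAA match, since the first reads TTNNGCAA on the other strand. Ltf held 1 match to TTGCNNAA and 2 to TTNNGNAA, starting 217 and 75 bases before the start, and Ngp held 2 and 3, starting 138, 102 and 11 bases before it. Camp and Elane held no match in these windows, and no member with a window held the palindrome TTGCGCAA. Of all 32851 windows of this length, 9.56% held TTGCNNAA, 36.8% held TTNNGNAA and 0.164% held TTGCGCAA. A window was found for 7 of the 10 members, and Cebpa, Cebpb and Cebpg held no match either.

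None of the 4 granule genes passed. Ltf (NM_008522), which encodes lactoferrin, an iron-binding protein of the secondary granules, had raw intensities of 100, 88 and 97 in control and 122, 112.5 and 85.5 in soy livers. Ngp (NM_008694), the neutrophilic granule protein gene, had 102, 93 and 76 in control and 137, 89 and 97 in soy livers. Both were well above background on none of the 6 arrays, as were 25.6% of all genes, so neither has a measured level or fold change here. These were also the members whose windows held the motif letters.

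Camp (NM_009921), the gene of the cathelicidin antimicrobial peptide, was well above background on all 6 arrays. Its signal was 9.52, 9.96 and 10.27 in control and 9.26, 9.48 and 9.39 in soy livers, so every soy array lay below every control array, though soy 2 and control 1 were close. The change was -0.54 (SE 0.19, adjusted p = 0.325), a 1.46-fold lower mean that did not pass, and it was -0.48 within slide 1 and -0.89 within slide 3. Elane (NM_015779), the neutrophil elastase gene of the primary granules, gave 12.24, 11.93 and 12.47 in control and 12.16, 12.04 and 11.73 in soy livers. The Elane control mean of 12.21 lay far above those of the primary granule genes Mpo, Prtn3 and Ctsg (7.05, 7.07 and 7.04). Which cells gave the Elane signal was not tested. The Elane groups overlapped, with a change of -0.24 (SE 0.17, adjusted p = 0.652), and the sign differed between slide 1 (0.073) and slide 3 (-0.74). Without control 3 it was -0.11 and without soy 3 -0.11, while without control 2 it was -0.38. Control array 3 had the highest signal of Cebpe, Camp and Elane.

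Lists of granulocyte genes were then counted, to set the Cebpe fall beside markers of the cells in which Cebpe is known. Of 25 granule and neutrophil genes on the array, the 4 members included, none passed by limma, 12 were higher and 13 lower in soy, and the median change was -0.025. Of these, 7 were well above background on no array, and over the 15 that cleared it throughout a group 6 were higher and 9 lower, with a median of -0.16. Over all genes that cleared it so, 7028 were higher and 8092 lower, with a median of -0.019. Mpo, Prtn3, Ctsg, Chil3 and Clec4d, all lower in soy, passed this filter only through the control group. Retnlg, higher in soy, passed it only through the soy group, so the filter itself adds genes to both sides of the split. The smallest adjusted p among the 25 was 0.305 (limma). At an unadjusted p under 0.05 there were 3 (Camp, Prtn3 and Retnlg), beside 14.2% of all genes. With the scanner software's processed signal, shifted to the 75th percentile of each array without quantile normalization (called the processed signal setting), 4 of the 25 passed, all higher in soy, beside 25.7% of all genes that passed there in either direction and 23.3% that passed as higher. Among these 4, Itgb2l and Trem1 passed by a probe other than their brightest. Their brightest probes gave -1.18 and 0.28 there and did not pass. The other primary granule genes Mpo (myeloperoxidase), Prtn3 (proteinase 3) and Ctsg (cathepsin G) were well above background on all control arrays and on no soy array, and none passed (adjusted p = 0.596, 0.382 and 0.618). Their mean signals were 7.05, 7.07 and 7.04 in control and 6.89, 6.66 and 6.84 in soy livers, and the groups overlapped for Prtn3 and Ctsg. With a 75th percentile shift in place of quantile normalization the median of the primary granule list turned from -0.18 to 0.029. The summed signal of the list, led by Mpo, was 465, 525 and 485 in control and 394, 486 and 431 in soy livers.

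Of the other secondary and tertiary granule genes, Mmp9, Cd177 and Fcnb were well above background on no array. Mmp8 (neutrophil collagenase) differed by 0.081 (adjusted p = 0.902) and Chil3 by -0.24 (adjusted p = 0.621), without passing. Lcn2, a granule protein gene that hepatocytes also express in the acute phase, gave 11.95, 11.40 and 11.33 in control and 9.71, 11.29 and 13.44 in soy livers. The soy arrays of Lcn2 thus lay both below and above all control arrays. The summed signal of this list, which Lcn2 leads, was 4761, 3621 and 3348 in control and 1589, 3264 and 11874 in soy livers.

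Markers of circulating neutrophils were mostly higher in soy livers, without passing. Of 9 on the array, 7 were higher and 2 lower in soy, with a median change of 0.16, or 0.26 without soy 2. Over all genes tested 11185 were higher and 11722 lower. Among the 7 markers that cleared background throughout a group, 5 were higher and 2 lower, with a median of 0.22. Of these, Retnlg cleared it throughout soy only and Clec4d throughout control only. S100a8 gave 7.96, 9.06 and 8.62 in control and 9.01, 9.30 and 9.07 in soy livers. S100a9, which encodes its partner in the calprotectin complex, gave 9.10, 10.36 and 9.53 in control and 10.08, 10.45 and 10.31 in soy livers. Control 2 was within the soy range for both, and the changes were 0.58 (adjusted p = 0.445) and 0.62 (adjusted p = 0.481), or 0.29 and 0.33 without control 1. Retnlg gave 7.27, 6.75 and 6.72 in control and 7.44, 7.47 and 7.30 in soy livers, a change of 0.49 without overlap (adjusted p = 0.305). Csf3r, the receptor of granulocyte colony-stimulating factor and the brightest probe of the list, differed by 0.15 (adjusted p = 0.666). Its control mean of 16.24 was near that of the hepatocyte marker Hnf4a (16.55), and which cells gave the Csf3r signal was not tested. Clec4d was well above background on all control arrays and on no soy array, with means of 6.93 and 6.62, overlapping groups and no pass (adjusted p = 0.509). Cxcr2 and Mmp25 were well above background on no array. The summed signal of the list, led by Csf3r, was 86180, 74471 and 82455 in control and 90833, 95448 and 83656 in soy livers.

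Eosinophils also use C/EBP epsilon, and 10 of their markers were on the array, 5 higher and 5 lower in soy, none passing. Over the 5 that cleared background throughout a group, 2 were higher and 3 lower, with a median of -0.25. Among these, Ccr3 cleared it throughout soy only. In the processed signal setting 4 of the 10 passed as higher (Epx, Prg3, Siglecf and Il5ra), of which Epx passed by its brightest probe, beside the 23.3% of all genes that passed as higher there. Epx, Siglecf and Prg3, which mark this cell type, were well above background on no array. Prg2, the major basic protein gene, was well above background on 1 control and 2 soy arrays and gave 6.26, 6.34 and 6.75 in control and 7.20, 6.51 and 7.91 in soy livers, a change of 0.76 with overlapping groups (adjusted p = 0.433), or 0.41 without soy 3. Ccr3, the eotaxin receptor, gave 8.06, 6.76 and 7.92 in control and 9.05, 8.53 and 10.56 in soy livers, so all soy arrays were higher, with a change of 1.80 (SE 0.54, adjusted p = 0.259). Ear1, Ear2 and Ear6, ribonuclease genes of this lineage that are close copies, differed by -0.36, -0.25 and -0.31 (adjusted p = 0.621, 0.794 and 0.377). Without control 2 Ear1 was at -0.65 and without control 3 at -0.14, and Ear2 ranged from -0.595 to -0.056 in the same way. The summed signal of the list, led by Ear2, was 2196, 1523 and 2356 in control and 2061, 1972 and 3585 in soy livers.

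Of 6 myeloid transcription factors, Gfi1 and Gata1 were well above background on no array and Spi1, which encodes PU.1, on 1 control array. Irf8 differed by 0.050 (adjusted p = 0.899) and Runx1 by -0.19 (adjusted p = 0.720), and Myb, well above background on no soy array, had means of 6.81 in control and 6.61 in soy livers with overlapping groups (adjusted p = 0.630). The 6 factors had 2 higher and 4 lower, with a median of -0.13, and all 6 were higher under the 75th percentile shift. With 1 array left out the median ranged from -0.18 (without soy 3) to -0.045 (without soy 1). In the processed signal setting 2 other probes of Myb and 1 of Runx1 passed as higher, beside the 23.3% of all genes, while their brightest probes gave -0.65 and -0.33 and did not pass. Their summed signal, led by Irf8, was 1548, 1476 and 1415 in control and 1370, 1516 and 1528 in soy livers.

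Of 5 monocyte markers 2 were higher and 3 lower, with a median of -0.10 that was 0.057 under the 75th percentile shift and 0.12 without control 3, and none passed. They included Itgam, the gene of CD11b, with 12.04, 12.79 and 13.09 in control and 13.46, 14.05 and 13.30 in soy livers, a change of 0.96 without overlap (adjusted p = 0.266), and Cx3cr1, well above background on no soy array, with means of 7.29 in control and 6.91 in soy livers without overlap (adjusted p = 0.330). F13a1, also well above background on no soy array, had means of 6.88 and 6.71 with overlapping groups (adjusted p = 0.717). In the processed signal setting another probe of F13a1 passed as higher (1.20) and another probe of Cx3cr1 passed as lower (-1.18). Ccr2 differed by 0.12 in the main fit (adjusted p = 0.861 from limma). The summed signal of the list, led by Itgam, was 7475, 10046 and 20639 in control and 14637, 21611 and 15793 in soy livers. Of 13 Kupffer cell markers 12 were higher and 1 lower in soy, and none passed. Kupffer cells are the resident macrophages of the liver. The brightest probe was that of Cd5l. The list's median was 0.083, and without control 1 it was -0.071, with 5 of 13 higher, and without soy 3 it was -0.003, also with 5 of 13 higher. With any other array left out it ranged from 0.13 (without soy 2) to 0.33 (without control 3), with 12 of 13 higher each time. Cd5l differed by 0.45 (adjusted p = 0.538), Vsig4 by 0.44 (adjusted p = 0.491), Folr2 by 0.46 (adjusted p = 0.391) and Marco by -0.73 (adjusted p = 0.589). Marco, a scavenger receptor gene, gave 11.03, 11.17 and 12.71 in control and 10.36, 11.19 and 11.15 in soy livers, so control 3 stood apart, and without it the change was -0.20. The summed signal was 49754, 69657 and 82990 in control and 62126, 74538 and 91404 in soy livers, lowest on control 1.

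General leukocyte markers were higher for 5 of 6 genes, with a median of 0.25 and none passing. Their summed signal, led by Lcp1, was 13860, 13296 and 15748 in control and 14114, 16666 and 17557 in soy livers. Ptprc, the CD45 gene, differed by 0.28 (adjusted p = 0.406) and Lcp1 by 0.38 (adjusted p = 0.386), both without overlap, Laptm5 by 0.36 (adjusted p = 0.596) and Coro1a by 0.22 (adjusted p = 0.601).

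Red cell genes, as a measure of blood in the sample, were higher for 7 of 8, with a median of 0.27 and overlapping groups for each. The brightest probe was that of Hba-a1, with a change of 0.26 (adjusted p = 0.774), and Hbb-b2 had the widest difference, 0.68 (adjusted p = 0.657). Alas2, of heme synthesis, differed by 0.42 (adjusted p = 0.842), Hbb-b1 by 0.33 (adjusted p = 0.817) and Hba-a2 by 0.28 (adjusted p = 0.778). The median was -0.12 with slide as a block and -0.071 without soy 2, and the alpha and beta globin genes are near-identical copies whose probes may share signal. Hepatocyte markers, which check the labelled tissue, were well above background on all arrays for 7 of 7 genes. Of these, 1 was higher and 6 lower in soy, with a median of -0.084 and none passing. With 1 array left out the median ranged from -0.14 (without control 1) to -0.041 (without soy 3). The summed signal of the list was 1791821 to 1972447 over the 6 arrays. Serpina1a, the alpha-1 antitrypsin gene and the brightest probe of the list, differed by -0.0043 (adjusted p = 0.992), Alb by -0.14 (adjusted p = 0.692), Hnf4a by -0.25 (adjusted p = 0.499) and Apoc3 by -0.084 (adjusted p = 0.813). Fga, a fibrinogen chain gene, differed by -0.31 (adjusted p = 0.795), and by 0.044 without soy 1. Another probe of Fga passed as lower when only probes well above background were tested (-0.93) and in the processed signal setting (-0.90). The summed signal of a list follows its brightest genes, so single genes of a list can differ while its sum overlaps, and the part that the number of myeloid cells had in the Cebpe fall was not tested. At an unadjusted p under 0.05 there were 3 of 10 eosinophil genes, 0 of 6 myeloid factors, 2 of 5 monocyte genes, 1 of 13 Kupffer genes, 2 of 6 leukocyte genes, 0 of 8 red cell genes and 0 of 7 hepatocyte genes, beside 14.2% of all genes.

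**Figure D3:**
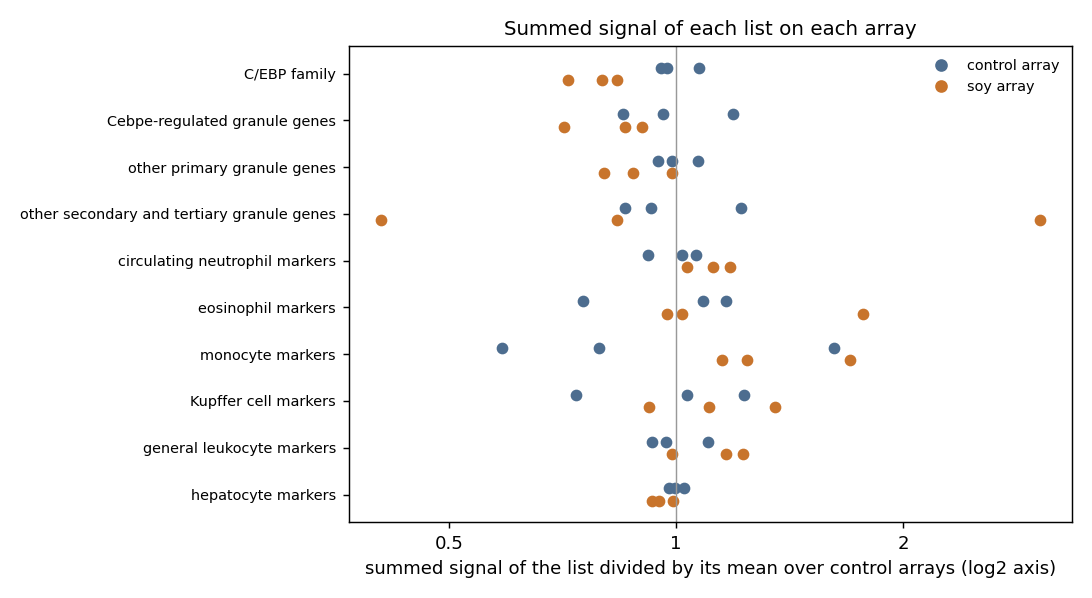
Summed linear signal of 10 gene lists on each array, divided by the mean of its 3 control arrays (x axis, log2 scale), with 3 control and 3 soy arrays per list. The neutrophil (led by Csf3r), eosinophil, monocyte and Kupffer sums overlap between diets, the C/EBP family sum, led by Cebpb, is lower on all 3 soy arrays, and the secondary and tertiary granule list is spread by Lcn2.

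Partners and regulators of the C/EBP proteins were mostly lower without passing. Of 12 genes 3 were higher and 9 lower, with a median of -0.20 and 5 without overlap, beside 20.5% of all genes without overlap and 51.2% lower. All 12 cleared background throughout a group. Among the 15120 genes that did so, 25.5% were without overlap and 8092 were lower. Without control 1 the median of the 12 genes was -0.079. In the processed signal setting another probe of Trib2 passed as higher (1.18), beside 23.3% of all genes that passed as higher there. The brightest probe of Trib2 gave -0.25 in that setting and did not pass. Ddit3, which encodes the dimer partner CHOP, differed by -0.38 (adjusted p = 0.501), Trib1, which marks C/EBP alpha for degradation, by -0.38 (adjusted p = 0.437) and Fos by -0.36 (adjusted p = 0.670), the last with overlapping groups. Without control 1 Ddit3 was at -0.16 and Fos at -0.022, and without soy 3 Trib1 was at -0.19 and Atf5 at 0.14. Atf5, the brightest probe of the list, differed by 0.37 (adjusted p = 0.699) and its groups overlapped. Atf5 takes part in the stress response to scarce amino acids.

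Genes of the cytokine, glucocorticoid and cyclic AMP pathways that act on Cebpb and Cebpd were lower for 7 of 7, beside 51.2% of all genes. Their median was -0.32, or -0.48 without soy 3, and none passed. With slide as a block 2 of the 7 were higher, and so were 2 without control 2. Il1r1, the receptor of interleukin-1, gave 13.35, 12.65 and 12.94 in control and 11.49, 11.38 and 12.10 in soy livers, with no overlap and a change of -1.32 (SE 0.24, adjusted p = 0.0805). It passed when only probes well above background were tested, and in the processed signal setting. Il6ra, the interleukin-6 receptor, gave 15.52, 14.83 and 14.04 in control and 14.28, 13.82 and 13.98 in soy livers, so it was highest on control 1, as Cebpb and Cebpd were, and the groups overlapped, with a change of -0.77 (adjusted p = 0.445), or -0.41 without control 1 and -1.15 without control 3. Socs3, a target and feedback inhibitor of the same pathway, differed by -0.63 (adjusted p = 0.656), with its highest value on control 2, and by -0.23 without control 2 and -1.17 without control 3. Stat3, which carries the interleukin-6 signal to the nucleus, differed by -0.32 (adjusted p = 0.479).

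Hepatocyte genes that C/EBP alpha is known to support were lower for 9 of 11, beside 51.2% of all genes, with a median of -0.24, and none passed. The median was -0.58 without soy 1 and -0.49 without control 3. Pck1, the phosphoenolpyruvate carboxykinase gene of gluconeogenesis, gave 17.81, 17.85 and 17.55 in control and 17.09, 16.75 and 16.85 in soy livers. Its groups did not overlap and its change of -0.84 (SE 0.13, adjusted p = 0.0576) lay just outside the threshold, and it passed in 6 alternatives. Tat, the tyrosine aminotransferase gene, gave 16.82, 16.51 and 15.70 in control and 15.72, 15.50 and 15.53 in soy livers, overlapping by control 3 and soy 1, and differed by -0.76 (adjusted p = 0.324). G6pc, the last enzyme of glucose output, differed by -0.71 (adjusted p = 0.324) and Gys2, the liver glycogen synthase, by -0.50 (adjusted p = 0.605), with -0.297 without control 1 and -0.805 without control 3 for Gys2.

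Acute phase genes, the targets of C/EBP beta and delta, were split, with 8 of 18 higher and 10 lower, a median of -0.038 and none passing. Single arrays set this split, since 13 of 18 were higher without soy 1 (median 0.30) and 3 of 18 without soy 3 (median -0.33). Saa1, the serum amyloid A gene, gave 16.43, 17.14 and 16.63 in control and 13.99, 16.16 and 18.19 in soy livers, an SD of 0.36 in control and 2.10 in soy. Saa1 and Saa2 are near-identical copies and gave similar changes of -0.62 and -0.64 (adjusted p = 0.837 and 0.841). Saa3 gave 11.77, 11.56 and 10.89 in control and 11.66, 12.57 and 13.57 in soy livers, a change of 1.20 (adjusted p = 0.372). For Saa1, Saa3 and Lcn2, soy 3 had the highest signal of all 6 arrays. Il1rn, the interleukin-1 receptor antagonist, differed by -0.45 (adjusted p = 0.238), and C3, the brightest probe of the list, by 0.013 (adjusted p = 0.979). At an unadjusted p under 0.05 there were 1 of 12 partners and regulators, 1 of 7 pathway genes, 4 of 11 hepatocyte targets and 3 of 18 acute phase genes, beside 14.2% of all genes.

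**Figure D4:**
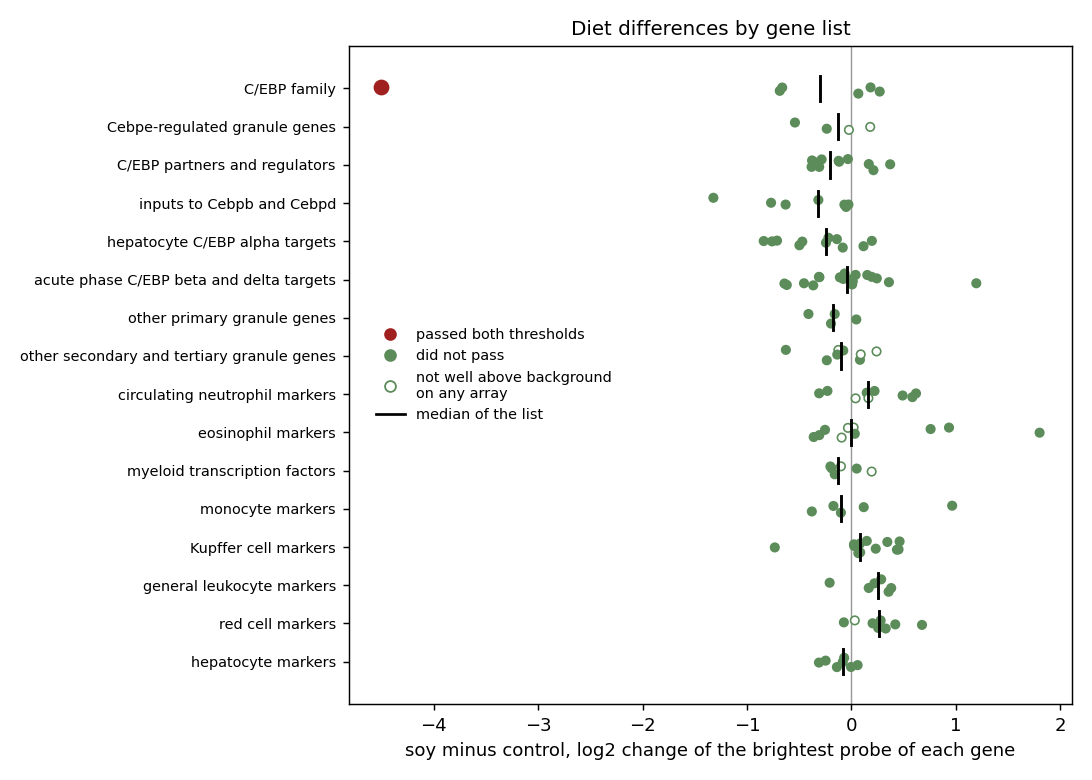
Soy minus control change (log2, x axis) of the brightest probe of each gene in 16 gene lists, with a line at the median of each list and open circles for genes well above background on no array. Cebpe, at -4.50, stands apart at the left, and the other list genes lie between -1.32 (Il1r1) and 1.80 (Ccr3).

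Genes next to Cebpe in the annotation were measured as well. On 1 side the nearest genes with a probe were 1700123O20Rik and 4930579G18Rik, with changes of 0.35 (adjusted p = 0.225) and -0.16 (adjusted p = 0.683). On the other side Slc7a8, an amino acid transporter gene, gave 7.22, 7.81 and 8.05 in control and 7.01, 7.65 and 7.25 in soy livers, with overlap and a change of -0.39 (adjusted p = 0.599), and Rnf212b was well above background on no array. None of the 4 neighbours passed.

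The genes most like Cebpe were taken by Pearson's r with the Cebpe signal over the 6 arrays, among 998 genes that were well above background on all control arrays and differed beyond the fold limits. As 473 of the 998 were lower in soy and 95 had r above 0.9, a high r is common here and is given as a description over 6 arrays that share the diet split. The highest were Tnf (r = 0.996), Ripply2 (r = 0.990), Lifr (r = 0.989), Il13ra1 (r = 0.988) and Zfp951 (r = 0.986). Tnf (NM_013693), the tumour necrosis factor gene, gave 12.37, 12.33 and 13.04 in control and 10.89, 11.03 and 10.83 in soy livers, highest on control 3 as Cebpe was. Tnf fell by 1.66 on the log2 scale (SE 0.19, adjusted p = 0.0254 from limma), while its other probe of the same transcript was well above background on no array. Il13ra1, a receptor chain of interleukin-13, changed by -0.91 (SE 0.11, adjusted p = 0.0284) and passed, and Ripply2 passed with -0.91 (SE 0.095, adjusted p = 0.0179). Lifr, the receptor of leukaemia inhibitory factor, differed by -0.86 (SE 0.13, adjusted p = 0.0531) and did not pass, and its other probes differed by -1.29 and -1.37 (adjusted p = 0.126 and 0.0936). Zfp951, well above background on no soy array, was at least 1.59-fold lower (adjusted p = 0.0326). Its other probe of the same transcript was well above background on no array and did not pass. These differences are smaller than that of Cebpe, as the plot of Cebpe with its most similar and its neighbouring genes shows.

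**Figure D5:**
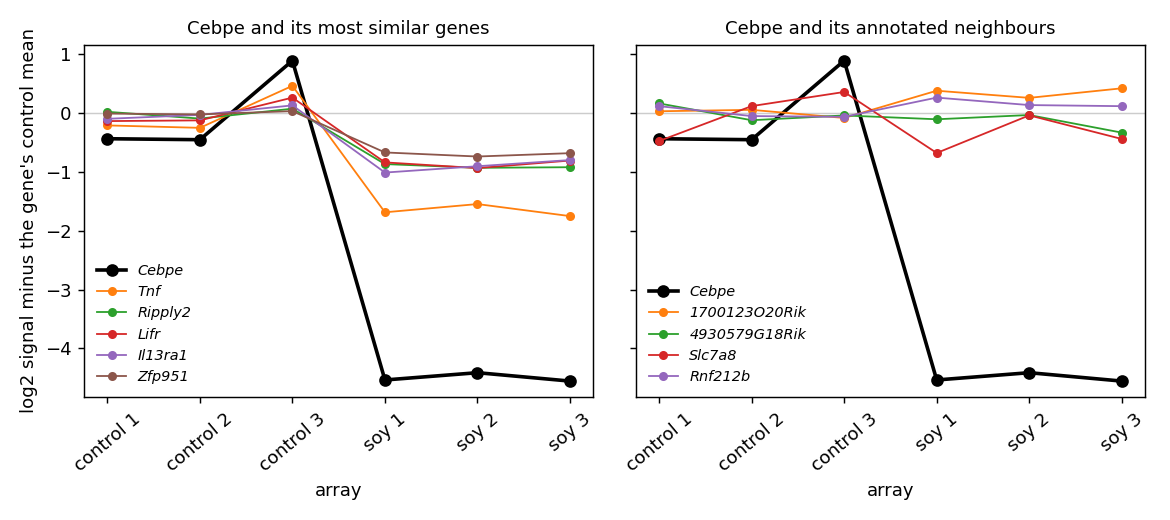
Signal of Cebpe (black) with the 5 genes most like it (left) and its 4 annotated neighbours (right) on each array, as log2 signal minus the control mean of the gene (y axis), where lines only join the points of 1 gene. Cebpe drops by over 4 on every soy array, Tnf by over 1, and the neighbours stay within 1 of their control means.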

How the data were processed

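Liver RNA of 6 mice was hybridized to single-colour Agilent mouse expression arrays. The authors deposited scanner output (Feature Extraction 11.5.1.1, per the headers), from which each spot's median intensity was taken, as yet without background correction or scaling, and, as an alternative, the software's processed intensity. A deposited table of log2 values shares its quantiles between arrays (medians 7.33 to 7.34) and lies within 0.0705 of the values used here.

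Median intensities, named as input in the methods, were corrected by normexp with an offset of 50. Control spots were then removed, arrays quantile normalized and values log2 transformed, and spots of the same probe averaged without outlier spots. The 56605 probes were tested with limma 3.58.1 (lmFit, eBayes) in R 4.3.3, with Benjamini-Hochberg adjustment. A gene is given by its brightest probe and counted as passing if any probe passed. Symbols came from RefSeq accessions (GRCm38.p6 table, 58.3% of probes). For Cebpe and Zfp951, which passed and were well above background on no soy array, a bound on the fold is given beside the fitted change or its p. Other such genes are given by their group means.

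Members and the 16 lists (135 genes, 130 on the array) were chosen with earlier results of these data known. The text names every member. From each list it names genes that passed, up to 4 with the widest change among those that cleared background throughout a group, and the brightest gene. It also names the 5 genes most like Cebpe and its 2 nearest genes on each side. Markers at background and Prg2 were named after their values were seen. Alternatives covered background correction, scaling, filters, moderation, blocks for replicate number and slide, and each array left out. The fit was tested on simulated data. Tables used pandas 2.3.3 and plots matplotlib 3.10.9 in Python 3.11.15. Small RNA and qRT-PCR data were not analysed here.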

Additional observations from a re-analysis of the deposited data

How the results depend on the processing

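Cebpe kept its direction and passed under all 19 tested alternatives, with changes of -7.23 to -4.06 and adjusted p of 0.000468 to 0.043. It was the member called in each, and the changes of -7.23 with the processed signal and shift and -5.44 within slide 3 moved by more than the spread between control arrays. Its soy signals were not well above background. Calls among granule and neutrophil genes moved from 0 to 4 with the software's processed signal, which was also shifted to the 75th percentile in place of quantile normalization (below, both together), and stayed at 0 under the others. Calls among hepatocyte and acute phase targets moved from 0 to 2 with both together and 2 with only probes well above background, and to 1 with the 75th percentile shift, cyclic loess, eBayes with trend and robust settings, and the mean of the probes of a gene, and they were 0 to 1 with 1 array left out. Of these, Pck1 was called in 6 settings, Fga in 2 and Tat without control 3. Over all probes, 198 calls became 77 with an offset of 16, 13138 with both together, 299 with the 75th percentile shift, 497 with only probes well above background, 25 with slide as a block, and 25 to 203 with 1 array left out. The cause of these moves was not tested. Both together, and the 75th percentile shift alone, moved the median change of all probes to 0.125 and 0.134, and the share of calls that were higher from 59.6% to 90.8% and 67.6%.

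Replicate numbers 1 to 3 were not treated as pairs in the main fit. Deviations of same-numbered arrays correlated by 0.122, -0.061 and 0.097, and those of differently numbered arrays by -0.206 to 0.105. Same-numbered arrays 1 and 3 also shared a slide, so these values cannot tell whether the numbers pair the samples. With the replicate block 78 probes were called, and Cebpe was among them. Cebpz turned to -0.0063 with slide as a block, and ranged from -0.060 (without control 1) to 0.18 (without control 3) with 1 array left out. Ltf, never well above background, turned to 0.44 with the processed signal and shift together, 0.22 with the 75th percentile shift alone, 0.027 with cyclic loess, and ranged from -0.13 (without soy 2) to 0.10 (without soy 3) with 1 array left out, with 0.033 without control 3. With 1 array left out, the change of 110 of the 130 list genes moved by over 1.5 times or turned, and 44 turned, Cebpe not among them. Precision is limited by 3 arrays per group and, for Cebpe, Ltf and Ngp, by signals that do not clear the background.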
